A study of Homo sapiens with 8 samples.

Results

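The enzymes that methylate lysine 9 of histone H3 (H3K9), the HP1 proteins that read this mark and their partners TRIM28 and ATRX were followed in CCRF-CEM cells, an established line grown from a human T-cell leukaemia (T-ALL). Of 10 named genes, 9 had a probe set under their symbol in the platform annotation, each with 1 probe set, of 17687 genes named on the array. They were SUV39H1, SUV39H2, EHMT1, EHMT2, SETDB1, TRIM28, CBX1, CBX3 and ATRX. CBX5 was not analysed here. All cells were taken after 1 h in a gel of bovine type I collagen at 1.7 mg/mL. The 4 untreated samples received no stated agent or solvent, and the other 4 had been given 1 µM OICR-9429 for 1 h before the gel. OICR-9429 binds WDR5, a shared subunit of the MLL-type complexes that methylate lysine 4 of the same histone. The titles number the samples of each group 1 to 4 as biological replicates, but nothing says whether cultures were separate, so p-values measure only this spread, which may be technical. RNA came from bulk cells, in which fewer cells of a kind and less RNA per cell cannot be told apart. All 8 arrays come from 1 cell line, which limits them as a model of T-ALL.

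H3K9 methylation marks silent chromatin. SUV39H1 and SUV39H2 place the trimethyl mark at pericentromeric repeats, EHMT2 (G9a) and EHMT1 (GLP) form a heterodimer that places mono- and dimethyl marks on gene-rich chromatin, and SETDB1 places the trimethyl mark where TRIM28 (KAP1) brings it to KRAB zinc finger proteins, above all at endogenous retroviruses. HP1 proteins bind the methylated lysine through a chromodomain: CBX1 encodes HP1 beta, CBX3 encodes HP1 gamma and CBX5 encodes HP1 alpha. ATRX is a remodelling ATPase that recognises the trimethyl mark and, with DAXX, deposits histone H3.3 at repeats and telomeres.

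The sequences upstream of SUV39H1, SUV39H2 and CBX3 are shown because they cover both directions of the difference between sample number 4 and the rest: SUV39H1 was highest and the other 2 lowest there. Windows were found for 7 of the 9 genes. Each is the 250 bases before the first start that RefSeq lists for the gene (build GRCh38.p14), 5′ to 3′ on the gene's strand, with every match to a searched motif in capitals. The windows are chrX:48695304-48695553 (plus strand), chr10:14878616-14878865 (plus strand, overlapping the divergent transcript SUV39H2-DT) and chr7:26201193-26201442 (plus strand).
SUV39H1: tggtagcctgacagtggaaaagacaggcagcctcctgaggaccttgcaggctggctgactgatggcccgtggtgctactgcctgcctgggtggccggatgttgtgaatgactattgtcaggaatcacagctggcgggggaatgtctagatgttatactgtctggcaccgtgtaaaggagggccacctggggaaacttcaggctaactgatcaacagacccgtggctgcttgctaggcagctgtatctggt
SUV39H2: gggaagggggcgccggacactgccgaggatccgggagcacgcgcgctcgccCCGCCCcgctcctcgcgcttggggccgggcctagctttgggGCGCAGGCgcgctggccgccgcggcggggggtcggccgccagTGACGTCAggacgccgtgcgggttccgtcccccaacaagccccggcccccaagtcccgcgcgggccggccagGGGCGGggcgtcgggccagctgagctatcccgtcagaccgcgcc
CBX3: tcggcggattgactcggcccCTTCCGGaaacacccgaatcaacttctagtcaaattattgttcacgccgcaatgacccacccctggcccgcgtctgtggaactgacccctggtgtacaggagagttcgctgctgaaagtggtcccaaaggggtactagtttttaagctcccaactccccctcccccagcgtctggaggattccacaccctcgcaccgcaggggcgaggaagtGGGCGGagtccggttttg
The motifs were searched on both strands as CCAAT (the NF-Y element), TTTNNCGC (the E2F core), GCNTGCGC (the NRF1 core), CCGGAAG (the ETS core), CACGTG (the E-box of MYC and MAX), GGGCGG (the GC box of SP1) and TGACGTCA (the cAMP response element). No match shown overlaps another motif. SUV39H2 holds 2 GC boxes, 1 NRF1 core and 1 cAMP response element, CBX3 holds 1 ETS core and 1 GC box, and SUV39H1 holds none of the 7 letter strings in this window. Of the 7 genes, 4 hold a GC box, 2 an NRF1 core, 2 an E-box, 1 an ETS core, 1 a cAMP response element and 0 a CCAAT box or E2F core. Over the first starts of all 27305 genes in the table, 42.3% of windows hold a GC box, 33.0% a CCAAT box, 10.9% an NRF1 core, 8.82% an ETS core, 6.49% an E-box, 5.93% an E2F core and 1.77% a cAMP response element. The SUV39H1 window has 56% G and C with 5 CpG (the table lists 2 starts for this gene), against 79.6% with 38 CpG for SUV39H2 and 58.8% with 16 CpG for CBX3. Across 4600 genes with a mean log2 level of at least 8, GC content of the window and the difference at number 4 had a Pearson correlation of 0.0023, given as a description since genes share arrays.

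Values are log2 expression levels on Affymetrix arrays, normalised by the authors, for 21448 probe sets. Array medians ran from 6.38 to 6.46. The arrays of number 4 had the lowest upper quartiles, 8.08 and 8.12, against 8.29 to 8.40 on the other 6. Their lower quartiles were the highest, 4.69 and 4.68, against 4.52 to 4.66 on the other 6. Levels of different probe sets are not on a common scale, so each gene is compared only with itself. Levels of the 9 T-lineage markers are given to describe the cells, and not to rank genes. CD3E, CD3D, LCK, CD3G, CD5, CD7, NOTCH1, CD2 and PTCRA averaged 11.8, 11.3, 10.9, 10.7, 9.92, 9.08, 7.55, 6.50 and 6.08 (n = 8). The 3 B cell markers CD79A, CD79B and MS4A1 averaged 9.42, 7.97 and 3.73. Since probe sets share no scale, these levels alone do not check the cell label.

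**Figure D1:**
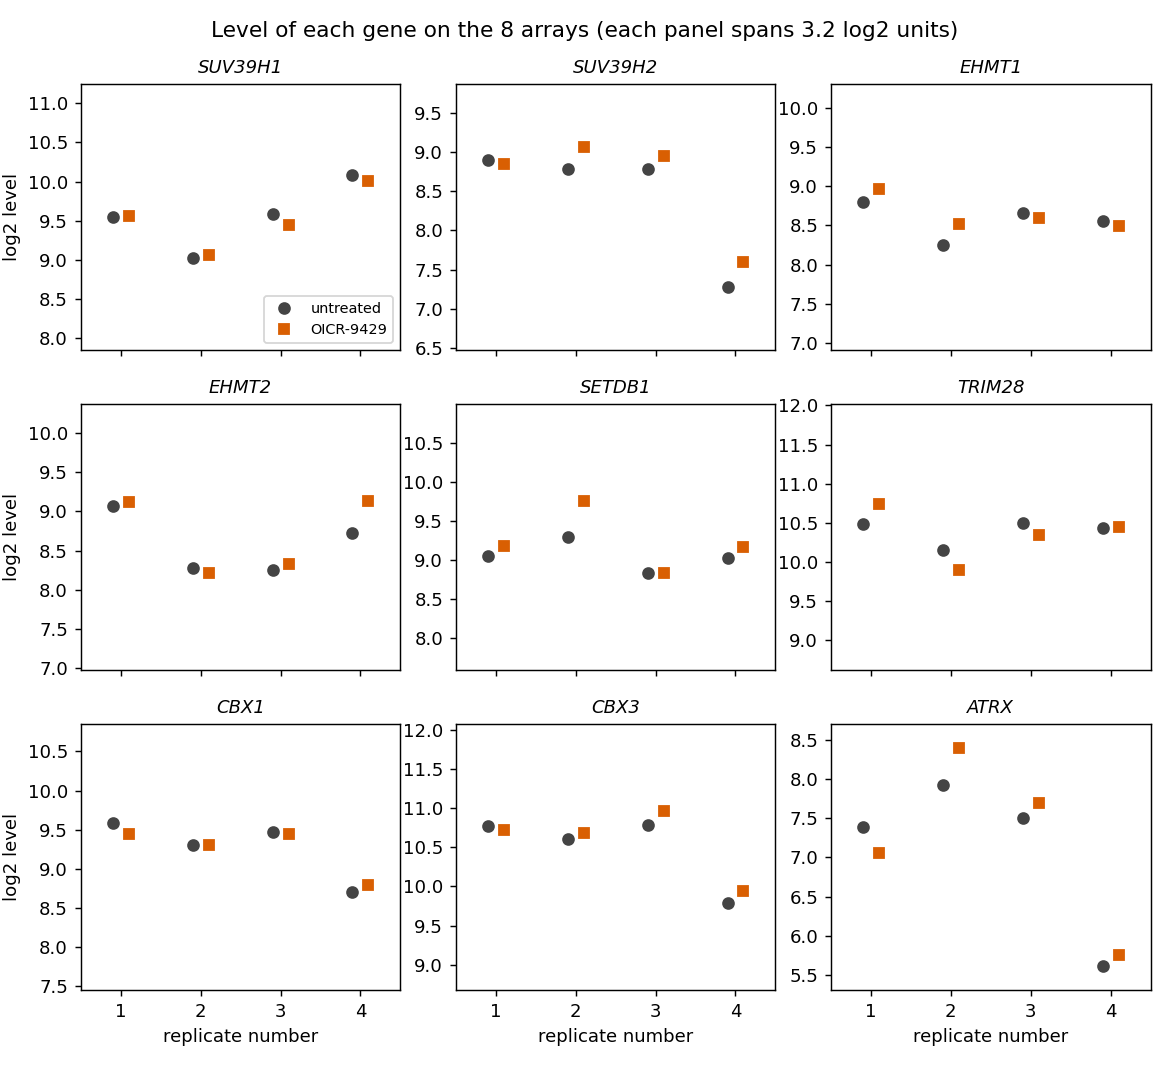
Log2 level of each of the 9 genes (vertical axis) by replicate number (horizontal axis), with untreated arrays as circles and OICR-9429 arrays as squares; panels differ in position but all span the same range. Same-numbered arrays sit together in most panels, and at number 4 SUV39H2, CBX1, CBX3 and ATRX are lowest while SUV39H1 is highest.

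No gene of the 9 was called as changed by OICR-9429, and the 2 groups' ranges overlapped for each. The differences ran from -0.04 for SUV39H1 to 0.18 for SETDB1 and SUV39H2 on the log2 scale, with 6 above and 3 below 0 and a median of 0.09, against a median of 0.0050 over all probe sets. With limma, 0 of the 9 genes and 0% of all probe sets passed an adjusted p of 0.05, both without and with the replicate number as a block. At an unadjusted p under 0.05 there were again 0 of the 9, against 0.490% of all probe sets without the block and 5.55% with it. No gene had groups without overlap, a pattern met by 0.737% of probe sets. With the block, the 95% interval of the difference lay within 1.5-fold in either direction for all 9 genes; without it, for 3.

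Most of the variation of these genes lay between the replicate numbers. Of the 9, 7 differed between numbers (limma, adjusted p from 0.000302 to 0.0292), where 50.3% of all probe sets did. That share covers dim and bright probe sets alike, and all of the 9 but ATRX had a mean level of at least 8. It was not computed for bright probe sets alone. EHMT1 and TRIM28 did not pass (limma, adjusted p = 0.0874 and 0.0647). Both did with a filter on dim probe sets or with trend and robust variance. The number held 79.9% (SETDB1) to 98.9% (SUV39H1) of each gene's variance over the 8 arrays, and treatment 0.106% (CBX1) to 11.1% (SETDB1). Over all probe sets pooled these shares were 85.5% and 3.93%. Without number 4, 2 genes (EHMT2 and ATRX) differed between the remaining numbers, against 13.9% of all probe sets in the same fit. The number tests have 2 arrays per number, and their errors rest on how unequal the treatment differences of the 4 pairs are, not on separate cultures.

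The SUV39H pair moved in opposite directions at number 4. SUV39H1 measured 9.55, 9.02, 9.58 and 10.08 in untreated and 9.56, 9.06, 9.45 and 10.01 in OICR-9429 samples 1 to 4. Both arrays of number 4 were the highest and both of number 2 the lowest, whatever the treatment. Number 4 was higher than the mean of the other numbers by 0.67 ± 0.11 (SE; limma, adjusted p = 0.00135), or 1.60-fold, and number 2 lower, at -0.67 ± 0.11 (adjusted p = 0.00419). In the order 4, 1, 3, 2 of the number means (10.05, 9.56, 9.52 and 9.04), number 4 differed from number 1, and 1 and 3, or 3 and 2, did not pass as neighbours, though 1 and 2 did. The treatment means were 9.56 ± 0.43 and 9.52 ± 0.39 (SD, n = 4 each), a difference of -0.04 ± 0.27 (SE), or ± 0.095 with the replicate block, and the pairs went both ways.

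SUV39H2, whose product makes the same mark, showed the reverse arrangement at number 4. It measured 8.90, 8.78, 8.78 and 7.28 in untreated and 8.85, 9.07, 8.95 and 7.60 in OICR-9429 samples 1 to 4. Numbers 1 to 3 lay within 8.78 to 9.07, and both arrays of number 4 lay more than 1 log2 unit below them. Number 4 stood at -1.45 ± 0.12 (SE) against the others (adjusted p = 7.06e-05), or 2.73-fold lower. Number means in the order 2, 1, 3, 4 were 8.92, 8.88, 8.87 and 7.44, and only the step from 3 to 4 passed. Treated samples averaged 8.62 ± 0.68 and untreated ones 8.44 ± 0.77 (SD, n = 4 each), a difference of 0.18 ± 0.43 (SE), with pairs of -0.05, 0.29, 0.17 and 0.32. With the replicate block its interval ran from -0.06 to 0.42. Numbers 1 and 2 also passed as higher than the rest (0.47 and 0.53), but each of these contrasts includes number 4 among the others, and neither passed without it (0.055, adjusted p = 0.822, for number 2).

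By number mean, the heterodimer partners EHMT2 and EHMT1 were both highest at number 1 and lowest at number 2, but differed in the order of numbers 3 and 4. EHMT2 measured 9.07, 8.28, 8.25 and 8.73 in untreated and 9.12, 8.22, 8.33 and 9.13 in OICR-9429 samples 1 to 4. Its arrays fell into a high set, numbers 1 and 4, and a low set, numbers 2 and 3, without overlap. The number means in the order 1, 4, 3, 2 were 9.10, 8.93, 8.29 and 8.25, and only the step from 4 to 3 passed the test. Number 1 was higher than the others by 0.60 ± 0.13 (SE; adjusted p = 0.0180) and number 4 by 0.39 ± 0.13 (adjusted p = 0.0338), while number 2 was lower (-0.52, adjusted p = 0.0185; -0.36 and 0.105 without number 1). The call for number 4 was lost without number 2 (0.24, adjusted p = 0.177) or without number 3 (0.26, adjusted p = 0.201), and that for number 1 without number 3. EHMT1 measured 8.80, 8.25, 8.66 and 8.55 in untreated and 8.97, 8.52, 8.59 and 8.49 in OICR-9429 samples. Its number means, 8.88, 8.62, 8.52 and 8.38 in the order 1, 3, 4, 2, lay within 0.50, the narrowest span of the 9, and no pair of numbers passed the test. With OICR-9429, EHMT2 differed by 0.12 ± 0.28 (SE), most of it from pair 4 (0.40), and EHMT1 by 0.08 ± 0.18.

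SETDB1 was the only one of the 9 to be higher with OICR-9429 in all 4 pairs, as were 5.94% of all probe sets. It measured 9.05, 9.30, 8.83 and 9.03 in untreated and 9.18, 9.76, 8.84 and 9.17 in OICR-9429 samples 1 to 4. Pair 2 differed by 0.46 and pair 3 by 0.01, so the size of the difference rests largely on 1 pair. The means were 9.05 ± 0.19 and 9.24 ± 0.38 (SD, n = 4 each), a difference of 0.18 ± 0.21 (SE; limma, adjusted p = 1), or ± 0.11 with the replicate block (adjusted p = 0.841). An exact test that turns the sign of whole pairs gave p = 0.125 (two-sided), the smallest that 4 pairs can give. Without pair 2 the difference was 0.09 with the block; without the OICR-9429 sample of number 2 alone, which leaves the groups with unequal numbers, it was 0.01. Between numbers, 2 was higher than the rest (0.51 ± 0.13, adjusted p = 0.0192; 0.42 and adjusted p = 0.0661 without number 3) and 4 stood at -0.06. In the order 2, 1, 4, 3 the number means were 9.53, 9.12, 9.10 and 8.84; no neighbours passed, and number 2 passed against 3 and 4.

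TRIM28, which recruits SETDB1, was lowest at number 2, where SETDB1 was highest. It measured 10.48, 10.15, 10.50 and 10.44 in untreated and 10.74, 9.90, 10.35 and 10.45 in OICR-9429 samples. Number 2 stood at -0.47 ± 0.13 (SE) against the others (adjusted p = 0.0325) and number 4 at 0.09. The call at number 2 was lost without number 1 (-0.41, adjusted p = 0.0520) and without number 4 (-0.49, adjusted p = 0.0572). In the order 1, 4, 3, 2 (means 10.61, 10.45, 10.43 and 10.03) no neighbours passed, and number 1 passed against 2. Pairs of 0.26, -0.25, -0.15 and 0.01 gave a treatment difference of -0.03 ± 0.20 (SE).

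The 2 HP1 genes measured, CBX1 and CBX3, were both lower at number 4. CBX1 measured 9.59, 9.31, 9.47 and 8.71 in untreated and 9.45, 9.31, 9.45 and 8.79 in OICR-9429 samples 1 to 4. CBX3 measured 10.77, 10.60, 10.79 and 9.79 in untreated and 10.72, 10.68, 10.96 and 9.94 in OICR-9429 samples. For each gene both arrays of number 4 lay below the other 6, which spanned 9.31 to 9.59 for CBX1 and 10.60 to 10.96 for CBX3. Number 4 stood at -0.68 ± 0.11 (SE) for CBX1 (adjusted p = 0.00138), or 1.60-fold lower, and at -0.89 ± 0.11 for CBX3 (adjusted p = 0.000393), or 1.85-fold lower. Both genes have a mean level of at least 8, and 46.2% of such probe sets were called lower at number 4. Among numbers 1 to 3 no pair passed for either gene, and number 4 passed against each of them. Their treatment differences were -0.02 ± 0.24 and 0.09 ± 0.29 (SE), with block intervals of -0.24 to 0.20 and -0.14 to 0.31.

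ATRX varied most of the 9, over 2.48 log2 units between number means. It measured 7.39, 7.92, 7.51 and 5.61 in untreated and 7.06, 8.40, 7.70 and 5.76 in OICR-9429 samples 1 to 4. Number 2 was highest and number 4 lowest in both groups. Number 4 stood at -1.98 ± 0.16 (SE; adjusted p = 6.02e-05), or 3.94-fold lower than the others, and number 2 at 1.32 ± 0.16 (adjusted p = 0.00164), or 2.50-fold higher. The contrast for number 2 has number 4 among the others, and without number 4 it was 0.745 (limma, adjusted p = 0.0275). In the order 2, 3, 1, 4 the means were 8.16, 7.61, 7.22 and 5.68; the step from 1 to 4 passed, the other neighbours did not, and 2 passed against 1. The treatment difference was 0.12 ± 0.62 (SE) without and ± 0.14 with the replicate block, from pairs of -0.33, 0.48, 0.19 and 0.15.

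**Figure D2:**
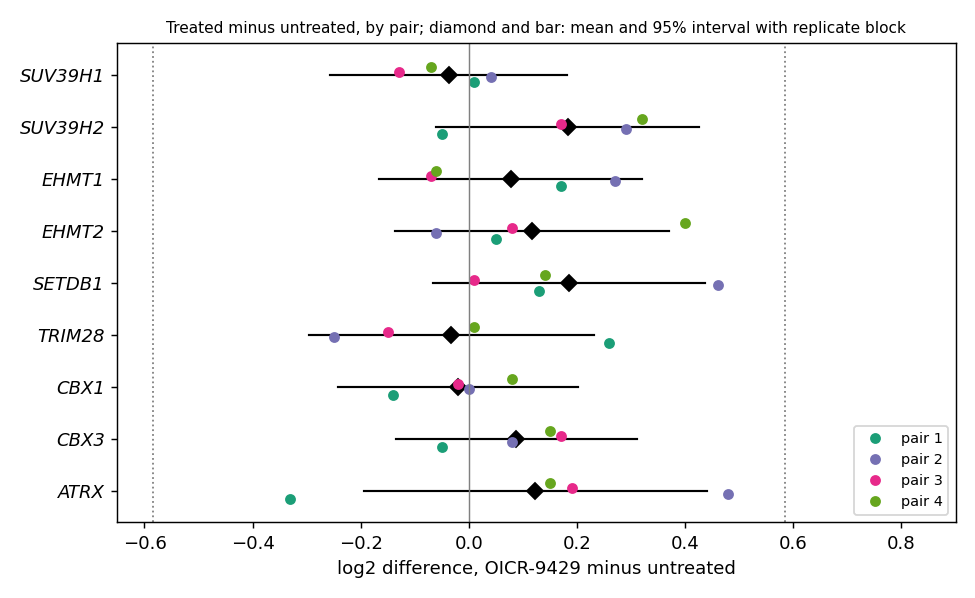
OICR-9429 minus untreated for each gene (log2, horizontal axis): coloured points are the 4 pairs, the diamond is their mean and the bar its 95% interval from limma with the replicate block; dotted lines mark 1.5-fold. Every interval crosses 0 and stays within the dotted lines, and SETDB1 alone has all 4 pairs above 0.

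Read together by number, the calls on the 9 genes were mixed in direction. At number 4, 2 genes were higher (SUV39H1 and EHMT2) and 4 lower (SUV39H2, CBX1, CBX3 and ATRX), with a median of -0.11. Of all probe sets 26.3% were higher and 25.5% lower there; of the 6147 with a mean level of at least 8, 22.6% were higher and 46.2% lower, with a median of -0.25 against 0.08 over all (-0.05 for the bright ones after quantile normalization, with the same 2 and 4 members called). Number 2 had 3 higher (SETDB1, SUV39H2 and ATRX) and 3 lower (SUV39H1, EHMT2 and TRIM28), against 15.4% and 11.6% of probe sets. Number 1 had 2 higher (SUV39H2 and EHMT2) and 0 lower, against 10.6% and 6.14%. For number 3 limma called 0 of the 9, against 1.38% of probe sets. At an unadjusted p under 0.05 there were 6 of the 9, against 18.8% of probe sets. The 4 contrasts use the same arrays, so a gene far off at one number moves in the other 3 as well. Between single numbers the shares of probe sets called were 14.9% for 1 and 2, 1.79% for 1 and 3, 44.5% for 1 and 4, 4.40% for 2 and 3, 47.8% for 2 and 4, and 39.7% for 3 and 4.

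**Figure D3:**
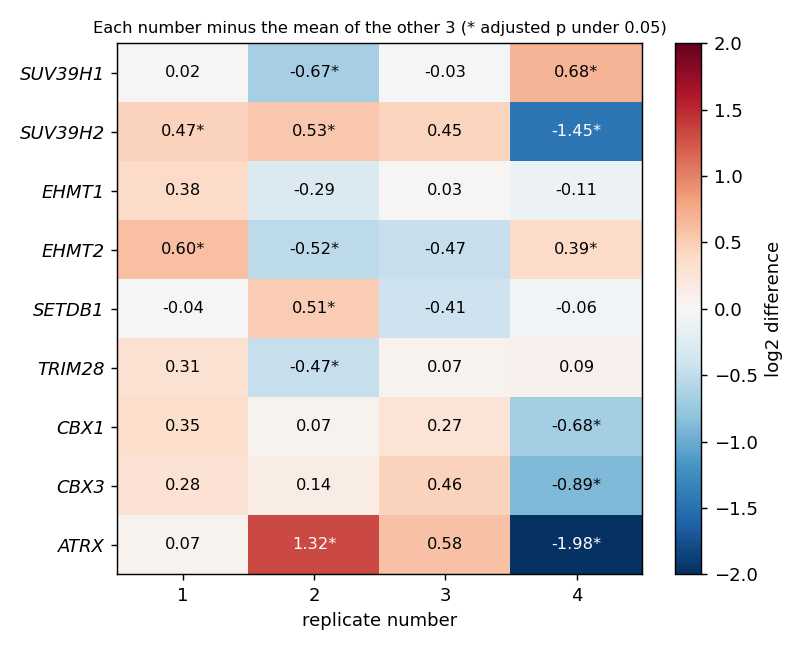
Log2 difference of each number (columns) from the mean of the other 3 for each gene (rows), with red for higher and blue for lower and a star where the adjusted p was under 0.05 (limma). SUV39H1 and SUV39H2 have opposite signs at numbers 2 and 4. At number 3 neither passed, and SUV39H1 stood near 0 (-0.03). ATRX holds both the highest and the lowest value. The SUV39H2 values at numbers 2 and 3 and the ATRX value at number 2 have number 4 among the others. Without number 4, the values at number 2 were 0.055 for SUV39H2 and 0.745 for ATRX.

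Other heterochromatin genes, 42 of 45 listed, were described in the same way. With OICR-9429, 0 of the 42 passed in limma with or without the block, 0 had an unadjusted p under 0.05 in either fit, and 28 lay above 0, 13 below and 1, KDM3B, at 0 (median 0.06). The genes of each group with the smallest p upward were MECOM (0.18), MORC2 of the HUSH pathway (0.25), the H3K9 demethylase KDM4D (0.16), the chromatin assembly subunit CHAF1B (0.14) and the de novo DNA methyltransferase DNMT3B (0.20). Downward they were PRDM16 (-0.22), ATF7IP2 (-0.14), KDM4B (-0.0025), INCENP (-0.07) and DNMT1 (-0.09). Between numbers, 33 of the 42 differed, beside 50.3% of all probe sets, and without number 4, 9 did, beside 13.9%. Both shares cover dim and bright probe sets alike.

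At number 4, 27 of the 42 were lower and 6 higher (limma), with a median of -0.65, beside the 25.5% of all and 46.2% of bright probe sets lower there. The shares higher there were 26.3% of all and 22.6% of bright probe sets. After quantile normalization, 25 of the 42 were lower and 8 higher. The DNA methylation genes had 6 of 7 lower and 1 higher (median -0.96). Among them HELLS, a remodeller needed for DNA methylation at repeats, stood at -2.76 ± 0.13 (SE; adjusted p = 2.49e-05), and MBD1, which binds methylated CpG, at 0.38 ± 0.11. Partners of ATRX and HP1 had 9 of 11 lower and 1 higher (median -0.66): ADNP, a zinc finger protein that binds HP1, stood at -1.29 ± 0.11 and INCENP, of the chromosomal passenger complex, at 0.49 ± 0.12. Partners of the H3K9 writers had 8 of 11 lower and 0 higher (median -0.68), led by the corepressor TRIM33 at -2.07 ± 0.11, while WIZ, which joins the EHMT heterodimer, stood at 0.18 and did not pass. The demethylases split, with 3 of 9 higher and 3 lower (median 0.01): KDM4B, which removes the trimethyl mark, stood at 0.92 ± 0.12 and JMJD1C at -2.07 ± 0.16. In the writer family SETDB2 stood at -1.05 ± 0.11 (SE) and MECOM at 0.62 ± 0.14, and PRDM2 and PRDM16 did not pass. MECOM, KDM4D and ATF7IP2 are dim: all 8 values of each lie below the lower quartiles of the arrays (4.52 to 4.69), and they were not shown to be above background.

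**Figure D4:**
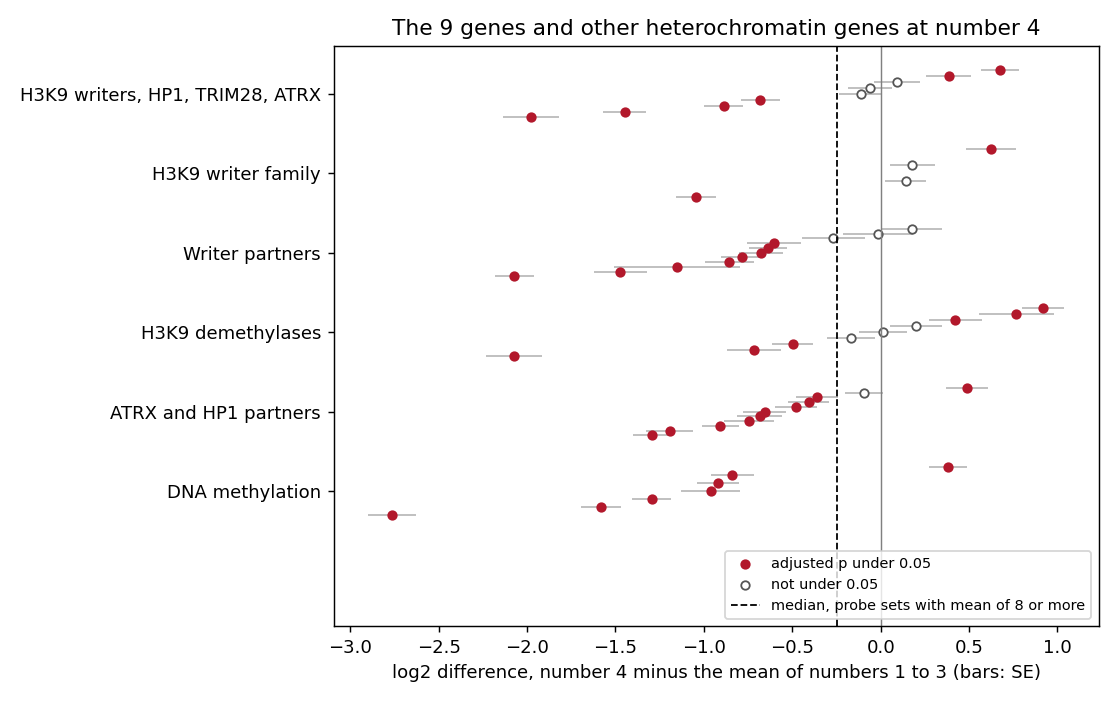
Difference of number 4 from the mean of numbers 1 to 3 (log2, horizontal axis, bars are SE) for the 9 genes and 5 groups of other heterochromatin genes; filled points had an adjusted p under 0.05 and the dashed line is the median of probe sets with a mean level of at least 8. Most partners and DNA methylation genes lie left of the line, HELLS farthest at -2.76, while the 9 genes and the demethylases lie on both sides.

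Values that moved with number 4 besides the upper and lower quartiles were the mean level of probe sets and marker levels. The correlation of mean level with the number 4 difference was -0.232 over 21448 probe sets. For the marker counts that follow, 26.3% of all probe sets were higher and 25.5% lower at number 4 (22.6% and 46.2% of bright ones). T-lineage markers averaged 9.52 to 9.59 on the number 4 arrays and 8.999 to 9.39 on the others, with 4 of 9 higher and 1 lower. Markers of other cells overlapped: B cell 7.16 to 7.20 against 6.82 to 7.17 (1 of 3 higher, 1 lower), myeloid 5.58 to 5.70 against 5.30 to 5.62 (2 of 4 higher, 0 lower), erythroid and megakaryocyte 5.81 to 6.09 against 5.63 to 6.09 (0 of 3), fibroblast and epithelial 6.08 to 6.19 against 5.91 to 6.17 (2 of 5 higher, 1 lower). Their part in the results at number 4 was not tested. None of the marker genes passed between treatments in limma, and array values have no zero to mark absence.

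The genes most like 4 members over the 8 arrays were found among 9280 other named genes at or above the median level, by Pearson correlation, with no p because arrays of a number belong together. For ATRX they were SOS2, ESCO1 and ZNF649 (0.996 each, and 0.995, 0.984 and 0.977 over the 6 arrays without number 4). For CBX3 they were VMA21 (0.998), GSTCD (0.995) and ZDHHC2 (0.995), and 0.962, 0.952 and 0.919 without number 4. For CBX1 they were TRMT1L (0.998), TMEM70 (0.993) and DDX27 (0.993), and 0.975, 0.973 and 0.901 without number 4. All genes named for ATRX, CBX3 and CBX1 stood below 0 at number 4, from -0.655 (DDX27) to -1.58 (TRMT1L). This direction follows from the choice of genes, since the number 4 arrays were among the 8 correlated, and is no separate result. The genes most like SETDB1 were ST7L (0.965), ING5 (0.965) and CLDND1 (0.959), and 0.966, 0.975 and 0.975 without number 4. At number 4 they stood at -0.07, -0.09 and -0.18.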

How the data were processed

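Total RNA of 8 samples was labelled by the GeneChip WT PLUS method, per the labels' protocols. The deposited values are log2 levels per probe set that the authors made with RMA and Transcriptome Analysis Console, per the submitters' processing notes, with versions and genome build not given in the sources used here. Scanner files were not used here, so background signal was not examined. Such values understate changes of dim probe sets. Of 21448 probe sets, 17709 carried 1 gene symbol, 3739 none and 0 more than 1; symbols were updated by Entrez ID from a RefSeq table (GRCh38.p14), used for names only. Upstream sequences come from a RefSeq promoter table of that build.

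Groups were compared across all probe sets with limma (3.58.1, R 4.3.3; lmFit, eBayes, two-sided, Benjamini-Hochberg over all probe sets, threshold 0.05): treatment without covariate, and numbers in a model of number and treatment, jointly, pairwise and each against the mean of the other 3. The treatment fits without and with the number as a block, the number 4 contrast and the joint number test were tried on simulated data. The other fits were not. Replicate numbers come from the titles; same-numbered arrays correlated in their deviations from the group means at 0.696, 0.748, 0.566 and 0.865, so they pair, and a second treatment fit took the number as a block. All 9 genes are named; of each group of other genes, the one with the smallest p in each direction for treatment and for number 4 is named. The members, lists and tests were chosen with earlier results of these data known. PRDM2, KDM3B and the upstream windows were added after values were seen. Alternatives are given in the closing section. The number of arrays limits the precision.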

Additional observations from a re-analysis of the deposited data

Results flagged for a closer look

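In 52 groups of 4 arrays (the 9 genes and the 17 other named genes, each in 2 groups), 4 held 1 array far from the other 3. Chance alone marks about 1 in 20 independent groups, but these groups are paired by number and many of the other genes, HELLS among them, were named for their difference at number 4, so no expected count is given. All 4 are arrays of number 4. SUV39H2 measured 7.28 in untreated sample 4, against 8.78 to 8.90 in the other untreated samples, and 7.60 in OICR-9429 sample 4, against 8.85 to 9.07. HELLS measured 6.98 in untreated sample 4, against 9.72 to 9.92, and 7.22 in OICR-9429 sample 4, against 9.71 to 10.15.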

How the results depend on the processing

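The replicate block changed no call between treatments: with it and under all other alternatives run, 0 of the 9 genes and 0 of the 42 other genes passed between treatments. The treatment difference of SETDB1 stayed above 0 (0.01 to 0.32 with arrays or pairs left out). The others changed sign when samples were left out, none past the threshold: SUV39H1 ranged from -0.22 to 0.14, SUV39H2 from -0.20 to 0.52, EHMT1 from -0.032 to 0.16, EHMT2 from -0.026 to 0.28, CBX1 from -0.21 to 0.13, CBX3 from -0.15 to 0.30, TRIM28 from -0.16 to 0.12 and ATRX from -0.38 to 0.61. Median centring gave CBX1 0.0050. In the blocked fit, leaving out a number turned CBX1 (0.020 without number 1) and TRIM28 (0.040 without number 2 and 0.0067 without number 3). With untreated replicate 4 left out, SUV39H2 (-0.20), CBX3 (-0.15) and ATRX (-0.38) fell below 0, because the groups then no longer hold the same numbers. At number 4, SUV39H1, SUV39H2, CBX1, CBX3 and ATRX were called in the same direction under every alternative run. Sizes depended on the scaling. After quantile normalization SUV39H1 stood at 0.85, EHMT2 at 0.65 and SUV39H2 at -1.23 there. CBX1 stood at -0.41, CBX3 at -0.74 and ATRX at -1.98. Of the uncalled genes, quantile normalization gave SETDB1 0.21 and EHMT1 0.15, and leaving out numbers gave SETDB1 -0.22 to 0.12, EHMT1 -0.24 to 0.015 and TRIM28 -0.0725 to 0.22. Counts at numbers 1 and 3 were unstable, and the cause was not tested: for number 1 (2 of 9) they were 4 after median centring, 0 after quantile normalization, 5 with the filter on dim probe sets, 6 with trend and robust variance and 1 to 4 with a number left out; for number 3 (0 of 9) they were 5, 5 and 0 to 4 with the last 3 of these. The number 2 count was 4 to 5 of 9 with a number left out (6 with none), SETDB1, SUV39H2, EHMT2 and TRIM28 each losing their call in at least 1 case. Genes differing between any numbers ranged from 2 to 7 of 9, and from 9 to 32 of 42 others, with a number left out, the lowest without number 4, and SETDB1 was not called without numbers 2, 3 or 4; other settings gave 7 to 9 of 9, with 8 after median centring or without a treatment term and 9 with the dim filter or with trend and robust variance.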
